A study of Mus musculus with 6 samples.

Results

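Long intergenic noncoding RNAs (lincRNAs) expressed in mouse liver were followed in animals given crizotinib and in controls. They were chosen by their annotated type and by their summed count: every gene that the deposited table types as lincRNA and nothing else, that lies outside chromosomes X and Y, and whose counts sum to at least 300 over the 6 libraries. Of 26123 genes in the table, 1231 were typed as lincRNA, 1202 of these were autosomal, and 166 reached the summed count. Livers came from ICR mice, an outbred stock, so that animals differ in genotype as well as in treatment. There were 3 livers labelled control and 3 labelled crizotinib, a drug against lung cancer that blocks the kinases ALK, ROS1 and MET. The stated dose was 300 mg/kg after 7 days of adaptation, with collection 1 week after dosing. Saline is named in the series' text, but that text does not say plainly which group received what, so groups follow the treatment label of each sample. The comparison asks which of these RNAs differ in liver injured by the drug, as the series' title describes the model.

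LincRNAs are transcribed by RNA polymerase II from their own genes between protein-coding genes, and most are spliced and polyadenylated like mRNAs without coding for a known protein. Some build nuclear structures (Neat1 forms paraspeckles, Malat1 lies in nuclear speckles), some are the primary transcripts from which microRNAs or small nucleolar RNAs are cut, and some belong to imprinted loci (H19, Meg3, Mirg). For most of the others no function is known. In liver, H19 is abundant before birth and is switched off in the adult.

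Promoter windows are printed for 4 lincRNAs described below. They are the single lincRNA that passed the test (Gm31583) and a pair with large differences that did not pass it (Gm38416 and Gm32461). The last is the lincRNA nearest to passing in the other direction (E130102H24Rik). Each window runs from 250 bases before to 50 bases after a transcription start of RefSeq on GRCm38.p6, 5′ to 3′ on the gene's strand, with every CG pair in capitals. The start lay 24 bases from the deposited gene's start for Gm31583, 487 bases for E130102H24Rik and 0 bases for the other two.
Gm31583, chr16:24090016-24090315, minus strand: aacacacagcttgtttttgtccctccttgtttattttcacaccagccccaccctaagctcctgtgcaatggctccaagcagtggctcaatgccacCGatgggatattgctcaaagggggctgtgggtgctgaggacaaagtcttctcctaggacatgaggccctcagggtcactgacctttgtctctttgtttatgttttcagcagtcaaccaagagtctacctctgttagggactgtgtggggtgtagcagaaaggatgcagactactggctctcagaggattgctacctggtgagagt
Gm38416, chr8:117681372-117681671, plus strand: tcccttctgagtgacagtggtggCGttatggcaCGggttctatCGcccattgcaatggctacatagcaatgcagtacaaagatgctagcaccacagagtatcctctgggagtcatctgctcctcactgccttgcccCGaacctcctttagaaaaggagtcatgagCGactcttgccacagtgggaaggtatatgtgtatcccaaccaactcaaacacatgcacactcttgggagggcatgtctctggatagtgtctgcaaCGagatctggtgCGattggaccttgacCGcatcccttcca
Gm32461, chr16:86806464-86806763, minus strand: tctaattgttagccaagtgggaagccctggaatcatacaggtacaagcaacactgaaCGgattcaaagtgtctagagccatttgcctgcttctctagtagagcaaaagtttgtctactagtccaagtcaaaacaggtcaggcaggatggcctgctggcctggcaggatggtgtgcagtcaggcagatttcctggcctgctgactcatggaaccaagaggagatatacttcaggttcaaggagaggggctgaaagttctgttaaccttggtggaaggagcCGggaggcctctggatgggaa
E130102H24Rik, chr4:101356199-101356498, minus strand: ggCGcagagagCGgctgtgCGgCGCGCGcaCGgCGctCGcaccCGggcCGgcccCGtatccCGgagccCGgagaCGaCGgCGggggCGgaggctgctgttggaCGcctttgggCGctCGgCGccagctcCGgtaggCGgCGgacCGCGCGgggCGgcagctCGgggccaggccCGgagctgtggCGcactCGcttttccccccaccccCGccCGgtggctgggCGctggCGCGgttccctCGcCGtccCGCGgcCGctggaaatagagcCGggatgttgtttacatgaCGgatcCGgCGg
The window of E130102H24Rik held 47 CG pairs, as many as or more than 98.8% of the 32851 promoter windows in the table, and its GC content was 76.7%. The windows of Gm31583, Gm32461 and Gm38416 held 1, 2 and 8 CG pairs, and the median window held 7. RefSeq gave 140 windows for 92 of the 166 lincRNAs, and their median was also 7. TATAAA, searched on both strands, was in none of the 4 printed windows, in 20.7% of the 140 lincRNA windows and in 13.6% of all windows. CCAAT was in 38.6% and 37.4%, and TTCNNNGAA in 6.43% and 8.30%, of lincRNA windows and of all windows.

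Mature microRNAs whose genes lie inside 3 of the lincRNAs are printed because the levels of these hosts are described below. The seed, bases 2 to 8, is in capitals, and sequences are RefSeq's. The first pair comes from E130102H24Rik, the second from H19, and the last pair, which shares the seed AAAGUGC, from Mir17hg.
mmu-miR-101a-3p: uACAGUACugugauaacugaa
mmu-miR-101a-5p: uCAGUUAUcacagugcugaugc
mmu-miR-675-5p: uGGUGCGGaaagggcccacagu
mmu-miR-675-3p: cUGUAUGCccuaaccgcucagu
mmu-miR-17-5p: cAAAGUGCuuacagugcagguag
mmu-miR-20a-5p: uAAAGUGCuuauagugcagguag

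The libraries held between 51123361 and 67947970 counts. Mitochondrially encoded genes took 44.5% of the counts of control replicate 1, 7.47% and 17.6% of those of the other controls and between 5.53% and 14.4% in crizotinib livers, and crizotinib replicate 3 lay apart from the other crizotinib livers for many genes. Defining hepatocyte markers were abundant in every library, with a summed level between 69217 and 85180.0 CPM in controls and between 29212 and 44650.4 CPM in crizotinib livers. CPM, here, are counts scaled to library size after normalization by trimmed means (TMM). Kupffer cell markers, those of the resident macrophages, summed to between 389.9 and 506 CPM in controls and between 40.9 and 72.6 CPM in crizotinib livers, 7 of 12 being lower past the test and none being at 0 in all libraries. T and NK cell markers summed to between 12.8 and 16.95 CPM in controls and between 2.36 and 3.38 CPM in crizotinib livers, with all 11 tested below 0 on the fitted log2 scale and none passing. B cell markers summed to between 31.7 and 132 CPM in controls and to 134, 62.5 and 43.8 CPM in crizotinib replicates 1, 2 and 3, and neutrophil markers to between 1.94 and 5.61 CPM and to 25.3, 11.4 and 3.08 CPM, with 4 of 6 tested above 0 in each list and none passing. All 9 stellate cell markers and all 8 sinusoidal endothelial markers were also fitted below 0, none passing. In whole liver, fewer cells of a type and less RNA per cell cannot be told apart.

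Most of these lincRNAs were low in liver and little studied. Of the 166, 96 carry predicted-gene symbols beginning with Gm and 46 carry RIKEN clone symbols. Their mean level over the 6 libraries had a median of 0.977 FPKM (fragments scaled by gene length and library size) and ranged from 0.0135 to 88.1 FPKM. By comparison, genes with a protein-coding transcript that met the same chromosome and count rule had a median of 2.66 FPKM. Only 80 lincRNAs reached 1 FPKM and 11 reached 10 FPKM. Between 161 and 164 had at least 1 count in any given library, and 152 had one in every library. The coefficient of variation over the 3 controls had a median of 39.6% for the lincRNAs and 24.7% for the protein-coding genes.

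The rule reads the sum over both groups, so a lincRNA could enter through 1 group. The counts reached 150 in both groups for 134 lincRNAs, in controls only for 15 and in crizotinib livers only for 17. At 300 the numbers were 72 in both groups, 30 in controls only, 18 in crizotinib livers only and 46 in neither, so more lincRNAs reached the threshold through the controls alone than through the crizotinib livers alone. Just inside the threshold lay D730003I15Rik with 300 summed counts, Gm30784 with 307 and A330035P11Rik with 310. Just outside lay Gm26532 with 299, 4732487G21Rik with 296 and Gm10134 with 293. A filter on low counts, needed for the test, kept 164. The other two, BB123696 and Gm32089 on chromosome 13, were at 0.0989 CPM or less in all controls and in crizotinib replicate 3 and at 9.44 and 4.41 CPM, and at 4.32 and 2.12 CPM, in crizotinib replicates 1 and 2.

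The lincRNA genes lay on 19 chromosomes, at a median of 8.32 kb from the nearest protein-coding gene. That gap was under 5 kb for 72 of them, 12 overlapped a protein-coding gene, and 18 started within 1 kb of a protein-coding start in the divergent direction. Their exons covered a median of 2314 bases, and 24 had a single exon. Opposite-strand rows of the table overlapped 37 lincRNAs. Since no source used here states whether counting used strand, reads of such pairs may be mixed. Another gene's transcript matched 70 of the lincRNAs over at least 100 bases at 97% identity or more, and reads of these may be shared between copies.

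As a group the lincRNAs had lower fitted levels in crizotinib livers, while very few single members could be told apart from the spread between animals. By the quasi-likelihood test of edgeR, adjusted over all genes by the Benjamini-Hochberg method, 1 of the 164 tested fell and 0 rose. Over all 16492 genes tested, 0.34% passed, 0.249% lower and 0.091% higher, so 1 in 164 is near the background. At an unadjusted p under 0.05 there were 35 lincRNAs (21.3%), 23 lower and 12 higher, beside 15.3% of all genes, 7.25% lower and 8.06% higher. DESeq2 called 20 lincRNAs, 13 lower and 7 higher, beside 6.73% of all genes (3.61% lower and 3.12% higher).

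The fitted log2 fold change was below 0 for 118 of the 164 lincRNAs, and for 46 it was above 0, beside 50% above 0 among all genes tested. Its median was -0.44 for the lincRNAs, -2.66e-05 for all genes and 0.04 for protein-coding genes. It ranged from -5.21 to 5.78 among lincRNAs. Under the same chromosome and count rule, the median was -0.26 for 139 antisense genes, -0.73 for 41 genes typed as processed transcripts, -0.19 for 58 genes typed TEC and 0.12 for 472 processed pseudogenes. Several classes of noncoding RNA thus lay below the protein-coding genes on this scale, and the lincRNAs were not alone in it. The median of the lincRNAs was -0.78 without crizotinib replicate 3 and -0.16 without control replicate 1.

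**Figure D1:**
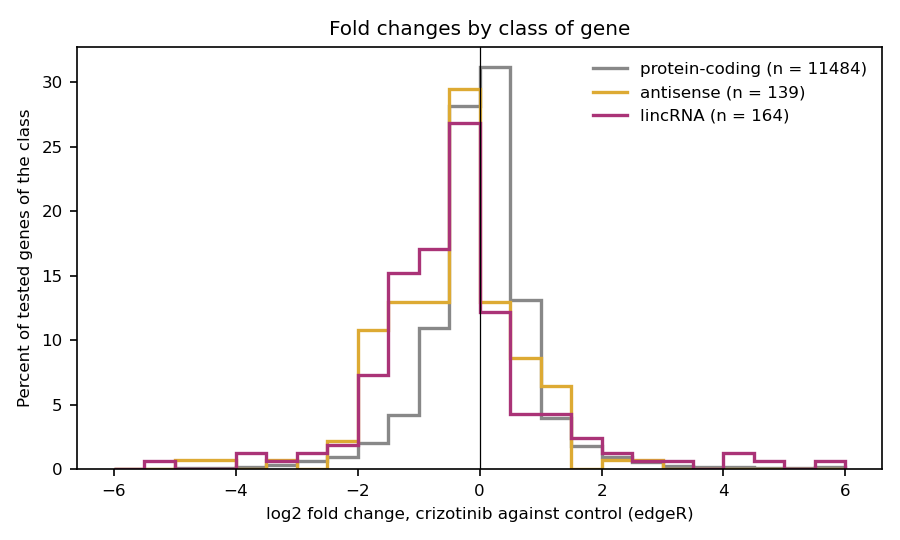
Distribution of the fitted log2 fold change (x axis, crizotinib against control, edgeR) in percent of each class of gene (y axis), for 164 lincRNAs, 139 antisense genes and 11484 genes with a protein-coding transcript. The lincRNA line stands to the left of the protein-coding line, with medians of -0.44 and 0.04.

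Groups that did not overlap were counted too. All 3 crizotinib livers lay below all 3 controls for 34 lincRNAs (20.7%), beside 10.3% of all genes tested, and above them for 7 (4.27%), beside 10.7%. Crizotinib replicate 1 lay below the control range for 85 lincRNAs and above it for 32. Replicate 2 lay below for 94 and above for 31, and replicate 3 below for 49 and above for 34. Over all genes tested, the share below the control range was 33.2%, 33.1% and 22.6% in replicates 1, 2 and 3, next to 51.8%, 57.3% and 29.9% of the lincRNAs. The share above the control range was 34.2%, 32.5% and 25.6% of all genes, next to 19.5%, 18.9% and 20.7% of the lincRNAs. Each crizotinib liver thus had a larger share of lincRNAs than of all genes below the controls and a smaller share above them, and the gap was smallest in replicate 3.

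**Figure D2:**
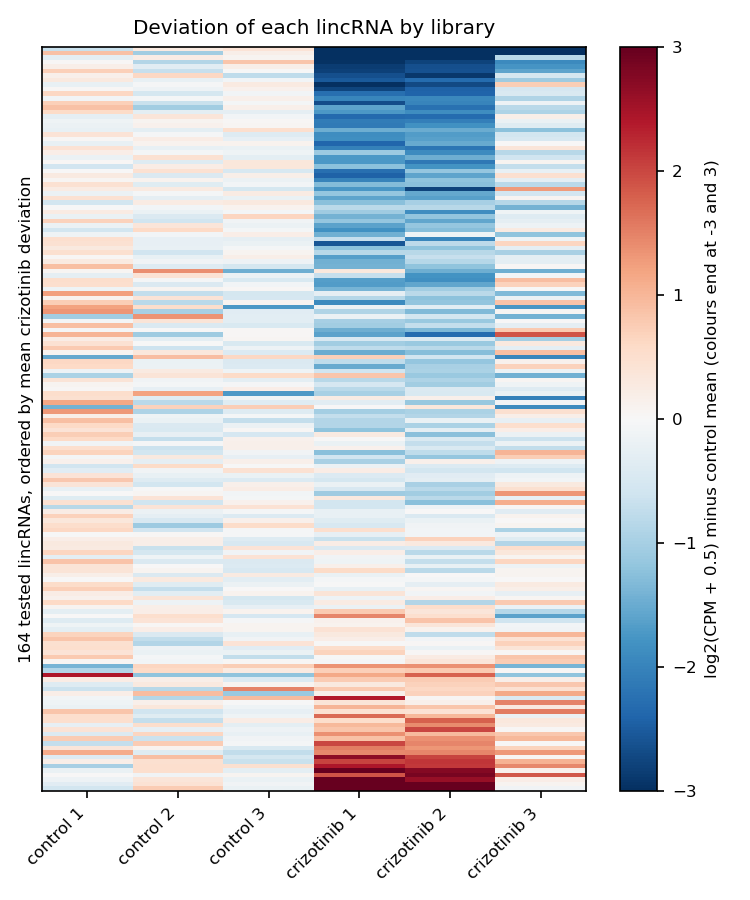
Each row is 1 of the 164 tested lincRNAs and each column 1 library. Colour gives log2(CPM + 0.5) minus the mean of the 3 controls, with colours ending at -3 and 3. Blue rows predominate in crizotinib replicates 1 and 2, and crizotinib replicate 3 is paler, with 49 lincRNAs below the control range beside 85 and 94.

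Gm31583 was the lincRNA that fell past the test. It has no known function and lies on the minus strand of chromosome 16 (ENSMUSG00000115919, chr16:24085083-24090089 on GRCm38), with 3 exons of 3556 bases in all. Its level was 52.7, 102 and 112 CPM in control replicates 1, 2 and 3 and 6.77, 6.26 and 8.14 CPM in crizotinib replicates 1, 2 and 3. All crizotinib livers were close together and far below the lowest control. The log2 fold change was -3.65 ± 0.37 (SE, n = 3 and 3), with an edgeR adjusted p of 0.0345. It was among the 11 lincRNAs above 10 FPKM, at 8.86, 32.5 and 28.3 FPKM in controls and 1.78, 1.56 and 2.51 FPKM in crizotinib livers. No other gene overlapped it, and no other gene's transcript matched it. With any 1 library left out other than crizotinib replicate 3, the call was lost, as it was under a replicate block and by limma on log2(FPKM + 1). Over all 14 other settings the log2 fold change stayed between -4.06 and -2.87 with an adjusted p of at most 0.174.

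The protein-coding gene nearest to Gm31583 was Bcl6, a transcriptional repressor, on the same strand and 96.2 kb away. Bcl6 was at 26.9, 27.0 and 24.2 CPM in controls and 18.4, 12.7 and 4.12 CPM in crizotinib livers. Its groups did not overlap, with a log2 fold change of -1.15 ± 0.48 that did not pass (edgeR adjusted p = 0.315). The summed markers of hepatocytes, Kupffer cells and T and NK cells given above were also lower in every crizotinib liver than in any control. So were those of stellate cells (186 to 337 against 92.6 to 141 CPM) and erythroid cells (257 to 993 against 31.1 to 196 CPM). Sums for sinusoidal endothelial cells, B cells, neutrophils and cholangiocytes were not. The part of these cells in the levels of Gm31583 and Bcl6 was not tested.

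The other lincRNAs described for low values did not pass edgeR's test. They are the 8 of smallest p whose groups did not overlap. All 8 passed DESeq2's test, with adjusted p between 2.17e-07 and 0.030, beside 6.73% of all genes. Among them, Gm44992, Gm38416 and Gm32461 reached 300 counts only in controls, and Gm30931 in neither group. Gm44992, on chromosome 7, was at 12.3, 2.91 and 7.36 CPM in controls and 0, 0.242 and 0.349 CPM in crizotinib livers. All crizotinib values were at or near 0, from 1191 summed counts in controls and 35 in crizotinib livers, a ratio of 0.0299 (95% exact binomial interval 0.0207 to 0.0418, counting error only). Part of it matches 4930435C17Rik at 97.6% identity. Its log2 fold change was -5.21 ± 1.03 (edgeR adjusted p = 0.0955), and DESeq2's adjusted p was 2.17e-07.

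Gm38416 on chromosome 8 was at 8.19, 4.08 and 14.7 CPM in controls and 0.579, 0.726 and 1.76 CPM in crizotinib livers. Gm32461 on chromosome 16 was at 12.6, 4.45 and 7.50 CPM in controls and 0.656, 0.819 and 2.19 CPM in crizotinib livers. In both, the controls were widely spread while every crizotinib liver lay below the lowest control, with crizotinib replicate 3 the nearest to it. The log2 fold changes were -3.13 ± 0.62 and -2.73 ± 0.59 (edgeR adjusted p = 0.0967 and 0.115). Gm32624, another of the lincRNAs, lies 10.4 kb from Gm32461 and had a log2 fold change of -1.69 ± 0.65 (adjusted p of 0.28 by edgeR), also with groups that did not overlap.

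Gm30931 on chromosome 8 was lower in level throughout, at 1.28, 1.19 and 2.45 CPM in controls and 0.251, 0.242 and 0.381 CPM in crizotinib livers, a log2 fold change of -2.49 ± 0.53 (adjusted p of 0.113 by edgeR). Its nearest protein-coding gene, 104 kb away on the same strand, was Acsl1, which activates long-chain fatty acids in liver. Acsl1 was at 813, 523 and 1050 CPM in controls and 201, 349 and 302 CPM in crizotinib livers. Every crizotinib liver lay below every control for both genes. The log2 fold change of Acsl1, -1.49 ± 0.44, did not pass edgeR's test (adjusted p = 0.185) and passed DESeq2's (adjusted p = 0.00572).

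The remaining 4 of this set had smaller differences at higher levels. Gm16548 on chromosome 1 was at 9.66, 9.83 and 11.4 CPM in controls and 2.26, 2.31 and 5.27 CPM in crizotinib livers, so that the controls were tightly grouped. It overlaps the genes of coagulation factor V (F5) and P-selectin (Selp) on the opposite strand, and F5 had a log2 fold change of -0.18 against -1.65 for Gm16548. C730027H18Rik (ENSMUSG00000112366, chromosome 10) averaged 13.3 ± 2.51 CPM in controls and 3.38 ± 2.28 CPM in crizotinib livers (SD, n = 3 each). A second row of the same symbol (ENSMUSG00000112189) overlaps it on the same strand, and their log2 fold changes were -1.97 and -1.23. Gm37494 averaged 25.0 ± 9.42 and 8.45 ± 3.33 CPM, and AU020206 averaged 9.30 ± 2.89 and 3.93 ± 0.894 CPM, in the same order. Across these 4 the edgeR adjusted p lay between 0.142 and 0.162.

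**Figure D3:**
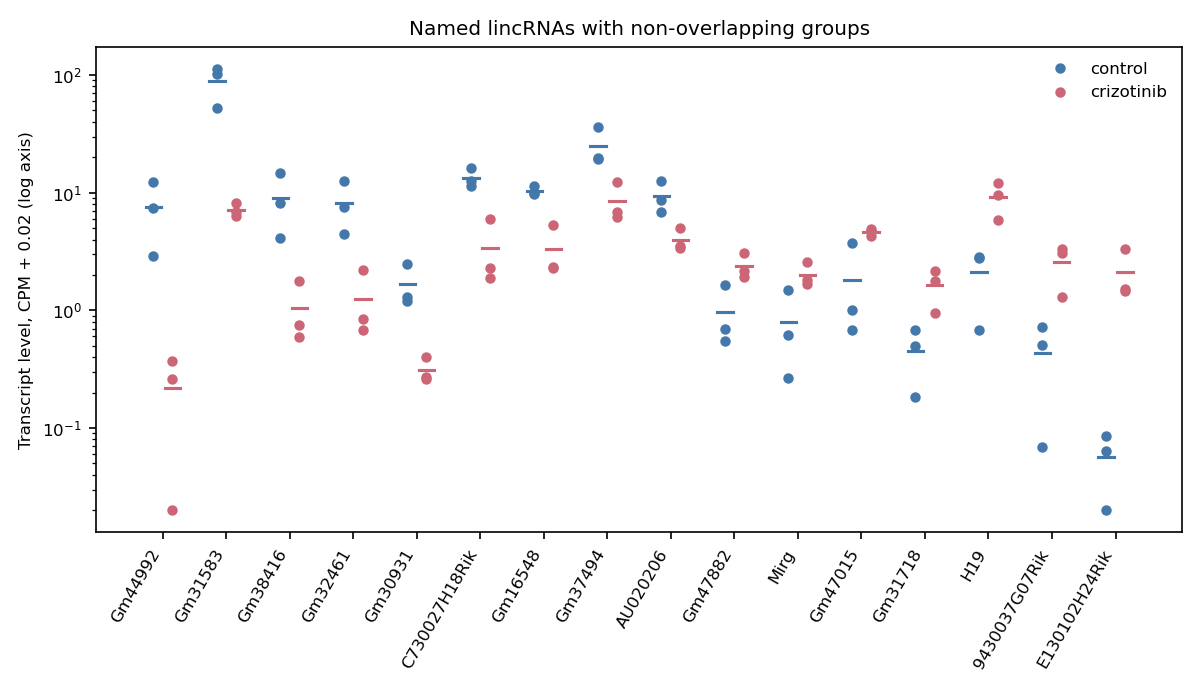
Level of 16 lincRNAs with non-overlapping groups (y axis, CPM + 0.02, log axis) in each control and crizotinib liver, with a bar at the mean of each group. Gm31583 stands out among the lower ones by its level and by the small spread of its crizotinib livers, 6.26 to 8.14 CPM, and E130102H24Rik is near 0 in every control.

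Among lincRNAs with higher values in crizotinib livers, none passed edgeR's test. E130102H24Rik came nearest. It lies on the minus strand of chromosome 4 (ENSMUSG00000086782, chr4:101346531-101356735) and contains the gene of miR-101a. Its counts were 2, 0 and 4 in controls and 77, 179 and 91 in crizotinib livers. It was thus almost absent in controls and low in the others, at 1.49, 3.33 and 1.44 CPM. It met the count rule only through the crizotinib livers, which gave 347 of its 353 counts. The ratio of the summed counts was 58.8 (95% exact binomial interval 26.7 to 161, counting error only). The fitted log2 fold change, 5.78 ± 0.93, rests on 6 control counts, and its edgeR adjusted p was 0.0583. DESeq2's adjusted p was 2.25e-08, and limma on log2(FPKM + 1) also called it. The lincRNA 0610043K17Rik overlaps it on the opposite strand with far fewer reads in crizotinib livers, 22, 53 and 35 counts, and a log2 fold change of 0.78 (adjusted p of 0.547 by edgeR). Its nearest protein-coding gene, Ak4, an adenylate kinase of mitochondria 62.5 kb away, had overlapping groups and a log2 fold change of -0.48.

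H19, the imprinted and maternally expressed RNA on chromosome 7 (chr7:142575529-142578143) that holds miR-675, was at 0.664, 2.81 and 2.77 CPM in controls and 11.98, 9.59 and 5.85 CPM in crizotinib livers. The lowest crizotinib liver, replicate 3, stood above the highest control. The log2 fold change was 2.13 ± 0.56 (edgeR adjusted p = 0.158). It passed under 4 of the 14 other settings, among them DESeq2 (adjusted p = 0.00743) and edgeR without crizotinib replicate 3 (adjusted p = 0.0472). Mrpl23, a mitochondrial ribosomal protein gene 34.8 kb away and the nearest coding one, had a log2 fold change of -0.55 with overlapping groups.

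The other 5 with non-overlapping, higher groups were low in level. Among them, 9430037G07Rik, Gm47015, Gm47882 and Mirg reached 300 counts only in crizotinib livers, and Gm31718 in neither group. 9430037G07Rik averaged 0.413 ± 0.333 CPM in controls and 2.55 ± 1.11 CPM in crizotinib livers, and one of its transcripts matches 9330159M07Rik over its whole length at 98.0% identity, so its own level is uncertain. Gm31718 averaged 0.434 ± 0.252 and 1.61 ± 0.609 CPM, and its neighbour Tomm20, a receptor for import into mitochondria, had a log2 fold change of 0.82 with overlapping groups. Gm47015 averaged 1.78 ± 1.67 and 4.63 ± 0.331 CPM, and its neighbour Plpp2, a lipid phosphate phosphatase, had a log2 fold change of 1.04 with overlapping groups. Gm47882 averaged 0.948 ± 0.600 and 2.38 ± 0.610 CPM, but part of it matches Hnrnpf at 99.4% identity. Mirg is described with the imprinted RNAs. For these 5 the edgeR adjusted p lay between 0.21 and 0.365, and only 9430037G07Rik passed DESeq2's test (adjusted p = 0.0256).

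By annotated position, 8 of the lincRNAs outside chromosome 18 hold 29 microRNA genes. Mirg holds 14 of them, Mir17hg 6 (the miR-17 to miR-92a cluster), 6720427I07Rik 3 (let-7a-1, let-7d and let-7f-1) and Meg3 2, and E130102H24Rik, H19, Snhg20 and 2900076A07Rik hold 1 each. Chromosome 18 was left out of this count, and Gm29966, which overlaps Mir122 on the same strand, is not in it. Gm29966 was below every control in crizotinib replicates 1 and 2 and above every one in replicate 3. The levels given here are those of the host RNA, and mature microRNAs were not measured. Mir17hg was at 2.50, 0.627 and 0.939 CPM in controls and 1.81, 1.79 and 4.42 CPM in crizotinib livers, with overlapping groups and a log2 fold change of 0.99 ± 0.63 (adjusted p of 0.496 by edgeR). The let-7 host 6720427I07Rik was at 3.54, 1.47 and 1.85 CPM in controls and 0.946, 0.875 and 3.24 CPM in crizotinib livers. Here too the groups overlapped, with crizotinib replicate 3 near the highest control and a log2 fold change of -0.43 ± 0.62.

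Small nucleolar RNA genes, which guide chemical modification of ribosomal and spliceosomal RNA, lay inside 7 of the lincRNAs. Snhg12 holds 5 of them (Snora16a at 2 places, Snora44, Snora61 and Snord99). Snhg12 averaged 7.53 ± 2.22 CPM in controls and 7.04 ± 1.07 CPM in crizotinib livers. Snhg6 averaged 6.06 ± 3.12 and 5.61 ± 0.846 CPM, and Snhg15 averaged 2.74 ± 1.07 and 3.28 ± 0.913 CPM. These differences were within the spread between animals, and edgeR's adjusted p was at least 0.676 for all 6 of the listed hosts that are among the lincRNAs. Over the wider list of 23 snoRNA hosts, 18 were tested, 0 passed (1 had an unadjusted p under 0.05), 8 lay above 0 in the fit, with a median of -0.10 on the log2 scale. Of 21 listed microRNA hosts, 9 were tested, 0 passed (1 had an unadjusted p under 0.05), 5 were fitted above 0 and the median was 0.67.

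Per unit of length, AW112010 was the highest of the lincRNAs. It is an RNA of immune cells that interferon induces in mouse, and part of it is translated in macrophages. Its level was 43.2, 185 and 91.8 FPKM in controls and 28.0, 38.8 and 142 FPKM in crizotinib livers. Crizotinib replicates 1 and 2 lay below all controls, and replicate 3 lay between the upper controls. The log2 fold change was -0.74 ± 0.57 (edgeR adjusted p = 0.574). Of the immune cell markers given above, the sums for Kupffer cells and for T and NK cells were below all controls in all 3 crizotinib livers, replicate 3 included, while those for B cells overlapped the controls and those for neutrophils were above them in crizotinib replicates 1 and 2. Their part in this result was not tested.

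Gm10076 came next at a mean of 36.3 FPKM, but its sequence is 99.5% identical to the ribosomal protein mRNA Rpl41, so its level is uncertain. 9130016M20Rik, a single-exon RNA on chromosome 19, followed at 36.1 FPKM. In CPM it was at 131, 79.0 and 121 in controls and 19.6, 35.8 and 152 in crizotinib livers, so that crizotinib replicate 3 was the highest of all and replicates 1 and 2 the lowest. Its log2 fold change was -0.68 ± 0.70 (edgeR adjusted p = 0.677). It passed without crizotinib replicate 3.

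Gm48633 and Gm8883 lie near 2 genes for abundant secreted proteins of liver, apolipoprotein B (Apob, 27.6 kb) and fibronectin (Fn1, 235 kb). Gm48633 was at 19.8, 25.1 and 24.8 CPM in controls and 4.03, 7.82 and 23.5 CPM in crizotinib livers, while Apob had a log2 fold change of 0.43 (adjusted p of 0.708 by edgeR) against -0.98 for Gm48633. Gm8883 was at 17.2, 29.6 and 16.5 CPM in controls and 40.4, 54.9 and 24.7 CPM in crizotinib livers. Fn1 was at 496, 1013 and 921 CPM and at 3263, 3731 and 1082 CPM in the same libraries. In both genes of that pair crizotinib replicates 1 and 2 were the highest 2 libraries, with log2 fold changes of 0.92 (edgeR adjusted p = 0.303) and 1.73 (edgeR adjusted p = 0.238). Gm28818, another of the lincRNAs, lies 2.86 kb from Gm8883 and also has Fn1 as its nearest protein-coding gene. It went the other way, with a log2 fold change of -0.44. Gm30262 averaged 22.97 ± 3.85 CPM in controls and 12.97 ± 5.26 CPM in crizotinib livers (log2 fold change -0.82, edgeR adjusted p = 0.307), and Gm49980 averaged 30.4 ± 23.1 and 14.7 ± 7.33 CPM with overlapping groups.

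**Figure D4:**
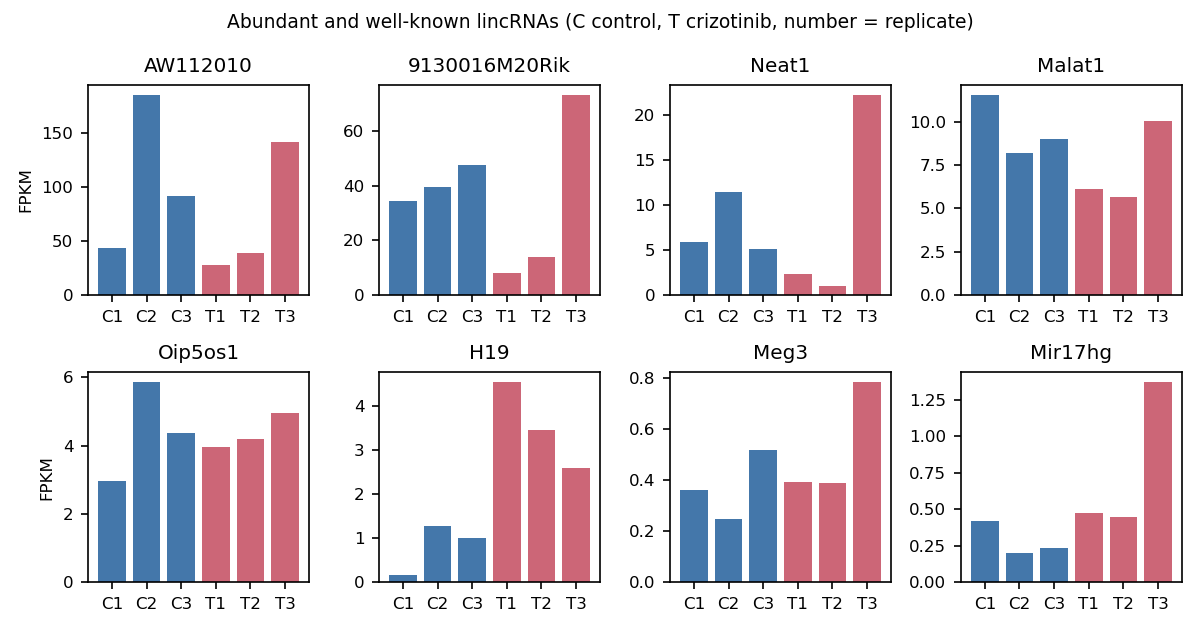
Level of 8 abundant or well-known lincRNAs (y axes, FPKM, each from 0) in control replicates C1 to C3 and crizotinib replicates T1 to T3. Crizotinib replicate 3 is the highest library for 9130016M20Rik, Neat1, Meg3 and Mir17hg, and H19 is higher in every crizotinib liver than in any control.

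Neat1, the scaffold of paraspeckles, had the most counts of any of the lincRNAs, 60627 in all, and its crizotinib livers were far apart. It was at 206, 208 and 119 CPM in controls and at 51.0, 24.5 and 420 CPM in crizotinib livers. Crizotinib replicates 1 and 2 were below every control and replicate 3 above every one. The log2 fold change was -0.11 ± 0.93 (edgeR adjusted p = 0.965). Without crizotinib replicate 3 it was -2.26 with an adjusted p of 0.0298, so 1 library decided the value. Malat1, whose gene is 22.0 kb from that of Neat1, was at 135, 50.3 and 70.2 CPM in controls and 45.8, 44.3 and 63.7 CPM in crizotinib livers, a log2 fold change of -0.73 ± 0.41 (adjusted p of 0.435 by edgeR) with groups that overlapped through replicate 3.

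Oip5os1 (Cyrano), which pairs with miR-7, was the steadiest of the abundant ones, at 41.2, 42.8 and 40.6 CPM in controls and 35.2, 39.2 and 37.5 CPM in crizotinib livers. All crizotinib livers lay just below the controls, with a log2 fold change of -0.16 ± 0.23 (adjusted p of 0.776 by edgeR). Pvt1, downstream of Myc, was at 1.48, 1.16 and 1.68 CPM in controls and 0.116, 0.689 and 1.08 CPM in crizotinib livers, also without overlap (log2 fold change -1.19 ± 0.72, edgeR adjusted p = 0.469). Of 10 listed nuclear architecture RNAs, 7 were tested, 0 passed (0 had an unadjusted p under 0.05), and 3 were fitted above 0 with a median of -0.11.

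Genes for proteins of paraspeckles and nuclear speckles were mostly fitted above 0. Of 27 tested, 0 passed edgeR's test and 20 lay above 0 in the fit, beside 50% of all genes. Their median was 0.36 on the log2 scale, beside -2.66e-05 for all genes. An unadjusted p under 0.05 was found for 4, all higher, beside 15.3% of all genes (8.06% higher). Sfpq and Pspc1 are given because their p were the smallest of this list. Sfpq, a core protein bound by Neat1, was at 32.8, 35.4 and 37.5 CPM in controls and 88.7, 81.6 and 74.1 CPM in crizotinib livers. All crizotinib livers were well above all controls, replicate 3 included, by 1.21 ± 0.25 on the log2 scale (edgeR adjusted p = 0.106, DESeq2 adjusted p = 0.000428). Pspc1, its partner in paraspeckles, was at 3.74, 5.28 and 5.32 CPM in controls and 19.1, 14.8 and 6.09 CPM in crizotinib livers, where replicate 3 lay just above the controls (log2 fold change 1.48 ± 0.43, edgeR adjusted p = 0.184, DESeq2 adjusted p = 0.0382).

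All 7 tested imprinted RNAs of a list of 8 lay above 0 in the fit, at a median of 0.46 on the log2 scale, and 0 passed (1, H19, had an unadjusted p under 0.05). Mirg, which lies downstream of Meg3 in the same maternally expressed cluster on chromosome 12, was at 1.48, 0.245 and 0.593 CPM in controls and 1.64, 2.55 and 1.79 CPM in crizotinib livers. Its lowest crizotinib value was just above its highest control (log2 fold change 1.37 ± 0.65, edgeR adjusted p = 0.365). Meg3 averaged 8.50 ± 3.91 CPM in controls and 9.54 ± 2.98 CPM in crizotinib livers, a log2 fold change of 0.17 that turned to -0.21 without control replicate 2 and to -0.14 without crizotinib replicate 3.

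Nuclear RNA decay, which removes many noncoding transcripts, was described by its genes. Of 22 tested genes of the nuclear exosome and its adaptors, 0 passed (2 had an unadjusted p under 0.05) and 15 lay above 0 in the fit, at a median of 0.21 on the log2 scale. The smallest p were those of Exosc9, a subunit of the exosome core, at 3.90 ± 1.40 CPM in controls and 7.38 ± 1.67 CPM in crizotinib livers, and of Dis3, a catalytic subunit, at 5.76 ± 0.659 and 9.01 ± 1.70 CPM. Their edgeR adjusted p were 0.30 and 0.319. Of 16 nonsense-mediated decay genes, 0 passed (0 had an unadjusted p under 0.05) and 12 were fitted above 0, with a median of 0.29. Smg1, the kinase of that pathway, had a log2 fold change of 0.72 ± 0.32 and Dcp2, a decapping enzyme, one of 0.58 ± 0.28 (edgeR adjusted p = 0.337 and 0.37).

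Some differences, large and small, were carried by crizotinib replicates 1 and 2 alone. For 15 lincRNAs (9.15%, beside 11.7% of all genes tested) these lay above every control while replicate 3 was within the control range, and for 29 (17.7%, beside 10.4%) they lay below every control while replicate 3 was within it. Fitted log2 fold changes ran from 0.16 to 4.76 in the former and from -2.52 to -0.36 in the latter. The 3 higher examples that follow were chosen after their values were seen. They met the count rule only through the crizotinib livers, so the rule itself favoured high values there. 1200007C13Rik on chromosome 2 was at 0.266, 0.810 and 0.395 CPM in controls and 11.8, 14.6 and 0.523 CPM in crizotinib livers. 3930402G23Rik on chromosome 8 was at 0.155, 0.443 and 0.132 CPM in controls and 11.9, 3.97 and 0.333 CPM in crizotinib livers. Its nearest protein-coding gene is Irs2, an adaptor of the insulin receptor 56.0 kb away, at 7.88, 20.6 and 15.2 CPM and at 172, 84.4 and 5.68 CPM in the same libraries. Irs2 is also the nearest protein-coding gene of Gm2814, B930025P03Rik and Gm32540, whose log2 fold changes were -0.59, -0.65 and -0.41 beside 4.44 for 3930402G23Rik and 2.58 for Irs2.

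Gm11827 on chromosome 4 was at 0.532, 1.18 and 0.461 CPM in controls and 14.8, 7.50 and 0.793 CPM in crizotinib livers. Trp53inp1, a target of p53 and the nearest protein-coding gene at 29.4 kb, was at 26.3, 46.4 and 40.4 CPM and at 606, 271 and 19 CPM. In both pairs lincRNA and neighbour were high in crizotinib replicates 1 and 2, while replicate 3 was within the control range for the lincRNA and below it for the neighbour. None of these 5 genes passed edgeR's test, with adjusted p between 0.154 and 0.274. Gm48199, at 0.199, 1.25 and 0.395 CPM in controls and 39.4, 11.2 and 0.460 CPM in crizotinib livers, had the same form and a log2 fold change of 4.76 ± 1.39 (adjusted p of 0.185 by edgeR). Gm48199 too met the count rule only through the crizotinib livers, at 2040, 604 and 29 counts beside 9, 82 and 24 in controls. Its nearest protein-coding gene, Diras2, lies 323 kb away and had at most 0.0772 CPM. Of the 15 higher lincRNAs of this form, 14 had a tested neighbour. The same form was found in 3 of these neighbours (21.4%), beside 11.7% of all genes tested. Irs2 and Trp53inp1 are not among the 3, since their replicate 3 lay below the control range. For the 29 lower lincRNAs it was found in 5 of 27 tested neighbours (18.5%), beside 10.4% of all genes.

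Without crizotinib replicate 3, edgeR called 42 of 166 lincRNAs (25.3%), 34 lower and 8 higher, beside 8.83% of all genes (4.72% lower and 4.11% higher), and Gm31583 was the only one of the 42 called with all libraries. Without any other single library edgeR called 0, beside 0.0% to 0.0176% of all genes, while between 24 and 36 had an unadjusted p under 0.05. Among the other settings, edgeR called 1 lincRNA (0.61%) with DESeq2 size factors, beside 0.37% of all genes. With no filter on low counts it called 1 (0.602%), beside 0.214% of all genes. Without mitochondrially encoded genes it called 1 (0.61%), beside 0.367%. Without control replicate 1 and crizotinib replicate 3 it called 45 (27.1%), beside 10.3% of all genes. Limma voom with library weights called 61 lincRNAs (37.2%), 46 of them lower, beside 19.5% of all genes. Limma on log2(FPKM + 1) called 3 (1.83%), beside 0.291% of all genes. 

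For the 16 lincRNAs described by their non-overlapping groups, 0 of the nearest protein-coding genes passed edgeR's test. These are 15 genes, since Zfp619 is nearest to both Gm44992 and Gm37494, and 3 of them (Trim43a, Gng4 and Rtl1) were too low to be tested. Bcl6 and Acsl1 had an unadjusted p under 0.05 among the neighbours of lower lincRNAs, and Plpp2 among those of higher ones. The groups of Bcl6 and Acsl1 did not overlap, and those of the other 13 did. Sdr42e1, a dehydrogenase-family gene 7.93 kb from Gm38416, was at 70.5, 95.4 and 60.5 CPM in controls and 48.5, 78.4 and 79.4 CPM in crizotinib livers, next to a log2 fold change of -3.13 in the lincRNA. N6amt1, a methyltransferase gene 548 kb from Gm32461, averaged 4.24 ± 0.367 and 3.87 ± 0.287 CPM.

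Over all 149 lincRNAs whose nearest protein-coding gene was tested, both had the same sign in 79 (53.0%). The log2 fold changes of the pairs correlated across genes at Pearson r = 0.23 and Spearman rho = 0.20. For 11542 protein-coding genes and their own nearest coding neighbours the share was 53.9%, with r = 0.19 and rho = 0.14, so the share of the lincRNAs was near this background. All pairs share the same 6 libraries, and genes are not independent replicates. The share was 50.7% for gaps under 5 kb (69 pairs), 50% for 5 to 50 kb (46 pairs) and 61.8% for 50 kb or more (34 pairs). It was 50% for the 18 divergent starts within 1 kb. Pairs on the same strand had r = 0.43 and rho = 0.29 (76 pairs, 53.9% with the same sign), and pairs on opposite strands r = 0.015 and rho = 0.12 (73 pairs, 52.1%). By gap, r was 0.11, 0.31 and 0.24 and rho 0.19, 0.19 and 0.30 from the nearest class to the farthest. These differences between classes were not tested. Of 19 pairs of lincRNAs within 100 kb of each other, 13 were fitted in the same direction, all of them below 0. Among all tested lincRNAs 72.0% were fitted below 0. The pairs are not separate, since several combine the same lincRNAs near Irs2 or near Setd1b.

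**Figure D5:**
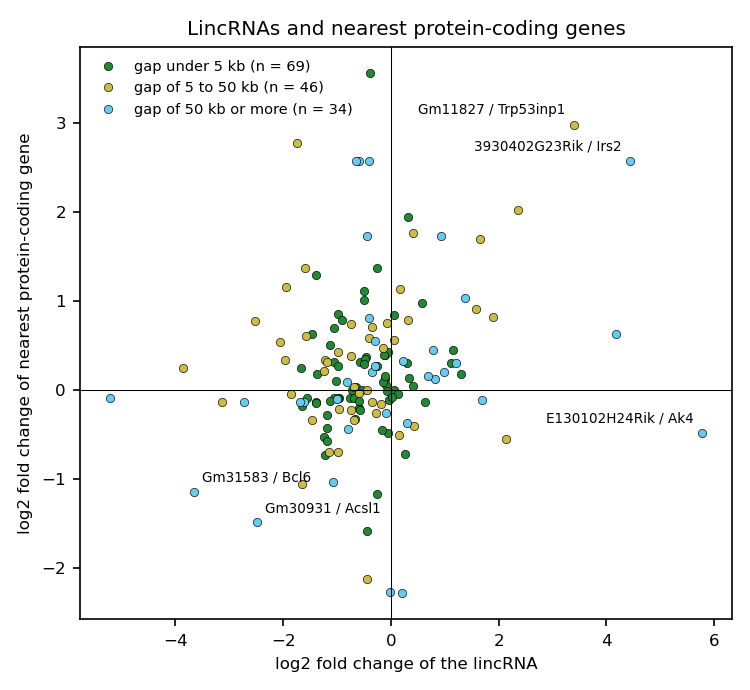
Log2 fold change of each lincRNA (x axis) against that of its nearest protein-coding gene (y axis) for 149 pairs, coloured by the gap between the genes. Points lie on both sides of both axes, 79 of 149 having the same sign, and the pairs named include Gm31583 with Bcl6 at -3.65 and -1.15.

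Together the lincRNAs took a small part of each library. They held 0.103%, 0.172% and 0.129% of all counts in control replicates 1, 2 and 3 and 0.0853%, 0.0771% and 0.180% in crizotinib replicates 1, 2 and 3. Crizotinib replicates 1 and 2 had the lowest shares and replicate 3 the highest. The lincRNA with the most counts was Neat1 in control replicates 1 and 2 and crizotinib replicate 3, 9130016M20Rik in control replicate 3 and 2900097C17Rik in crizotinib replicates 1 and 2. The mean was 0.135 ± 0.035% in controls and 0.114 ± 0.057% in crizotinib livers (SD, n = 3 each), and the difference of -0.021 percentage points was smaller than the SD of either group (exact permutation test, two-sided, p = 0.6, the smallest possible being 0.1). With mitochondrially encoded counts left out of the total the means were 0.176% and 0.127% (exact permutation test, two-sided, p = 0.4).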

How the data were processed

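Liver RNA of 3 control and 3 crizotinib mice was sequenced from a SMARTer mRNA-seq kit, per the labels' protocols. The authors deposited, per the file headers, a whole-number read count and an FPKM value for each gene and library. The aligner, the counter and the strand setting were not given in the sources used here. Gene positions equalled those of GENCODE M21 on GRCm38 for 23362 of 26060 identifiers and for 158 of the 166 lincRNAs. The lincRNAs, gene lists and tests were chosen with earlier results of these data known.

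Counts were filtered with filterByExpr (minimum count 10, minimum total 15), scaled by TMM and tested over 16492 genes by quasi-likelihood in edgeR 4.0.16 (R 4.3.3). Tests were two-sided, p-values were adjusted by the Benjamini-Hochberg method, and calls had an adjusted p under 0.05. The biological coefficient of variation common to all genes was 0.470. Nearest genes had the smallest gap between gene bodies. Genes were named by a rule: those past the threshold; up to 8 per direction with the smallest p and non-overlapping groups; the 8 highest in FPKM; listed lincRNAs; and those beside the count threshold. From each list of protein genes, those with the smallest p were named. The 14 other settings included DESeq2 1.42.0, limma 3.58.1 with voom library weights or on log2(FPKM + 1), and each library left out. The edgeR fit was tested on simulated data. Each animal gave 1 library, so p-values measure the spread between these animals.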

Additional observations from a re-analysis of the deposited data

How the results depend on the processing

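The number of lincRNAs called was 20 by DESeq2, 61 by limma voom with library weights, 3 by limma on log2(FPKM + 1) (E130102H24Rik, Gm36264 and Gm44992), 45 without control replicate 1 and crizotinib replicate 3, 0 to 42 with 1 library left out and 0 with the replicate number as a block. It was 1 with DESeq2 size factors, without a filter on low counts, without mitochondrially encoded genes and at a summed count of at least 100 or 1000. Deviations of same-numbered samples correlated at -0.135, 0.253 and -0.077, and not every sample correlated best with its own number. With 3 libraries a group these values cannot decide whether the numbers pair the animals. No nearest or listed gene was called under the block. Nearest genes called, of 12 tested by edgeR, numbered 1 by DESeq2 and 2 by voom, beside 6.73% and 19.5% of all genes. The lists had 18, 9, 7, 7, 27, 22 and 16 genes tested by edgeR, some of them in more than 1 list. Listed genes called numbered 3 by DESeq2 and 12 by voom, beside the same shares of all genes. They numbered 5 without control replicate 1 and crizotinib replicate 3, beside 10.3% of all genes. With 1 library left out they numbered 0 to 4, beside 0.0% to 8.83% of all genes. The difference in share of counts stayed negative, between -0.054 and -0.002 percentage points.

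The sign turned for some uncalled log2 fold changes. With 1 library left out, they ranged from -1.48 to 0.36 for Snhg20, from -0.67 to 0.017 for Epb41l4aos, from -0.21 to 0.39 for Meg3, from -0.18 to 1.43 for Gm10076, from -0.30 to 0.13 for Snhg12, from -0.45 to 0.34 for Snhg6 and from -2.26 to 0.42 for Neat1. Without control replicate 1 and crizotinib replicate 3 they were -0.06 for Gm10076, 0.16 for Snhg12 and 0.23 for Snhg6. By voom they were 0.51 for Gm49980, -0.012 for Gm10076, 0.14 for Snhg12 and 0.12 for Snhg6. On FPKM they were 0.023 for Oip5os1, 0.090 for Snhg12 and 0.17 for Snhg6, and under the block 0.017 for Snhg6. The causes were not tested. Of the 166 lincRNAs, 80 reached a mean of 1 FPKM.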
